A study of Mus musculus with 24 samples.

Results

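The comparison described here is that of aged with young long-term hematopoietic stem cells (LT-HSC), the rarest and most self-renewing cells of the blood system. It rests on 8 of the 24 bulk RNA-seq libraries of the series, chosen by their sample titles, 4 from aged and 4 from young LT-HSC. The cells came from the marrow of male C57BL/6 mice aged 107 weeks (4 mice) or 12 weeks (4 mice). Marrow had been enriched for cells carrying CD117, the receptor Kit, and LT-HSC were sorted as lineage-negative, Sca1-positive, Kit-positive cells that carry CD150 and lack CD48. The other 16 libraries hold aged and young short-term stem cells (ST-HSC, lacking both CD150 and CD48) and multipotent progenitors (MPP, lacking CD150 and carrying CD48), and serve here to show where LT-HSC differ. No label ties a library number to a mouse, so p-values measure the spread between libraries, which may in part be technical. No label names a treatment, and all groups share the strain, the sex and the CD117 enrichment.

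LT-HSC divide rarely and can rebuild the whole blood system for life. With age, in mice, the phenotypic pool grows while its output of lymphocytes and its performance per cell after transplantation decline. A set of marker genes is well known to rise in aged stem cells, among them Selp, Vwf, Clu, Aldh1a1, Itgb3 and Alcam. The best known aging genes were gathered in a list of 45, chosen with earlier results of these data known. Here 42 of them rose and 3 (Pf4, Uhrf1 and Clec12a) fell, where 9.98% and 8.87% of all tested genes did. The choice may have fixed this outcome, so it is no test of the list. The rest of the text is mainly about other genes.

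Levels are given as CPM, scaled per library by its TMM-adjusted total, in libraries 1 to 4 of each age or as mean ± SD over 4 libraries. Changes are on the log2 scale, aged minus young, with ± SE. Adjusted p-values are those of the quasi-likelihood test of edgeR, adjusted over all tested genes by the method of Benjamini and Hochberg. A gene is said to have risen or fallen where its adjusted p was under 0.05. The 4 aged libraries held 7792983 to 9881620 counts and the 4 young ones 7583212 to 12946550. Between 15528 and 15868 genes had a count in an aged library, against 14991 to 16024 in a young one.

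The label LT-HSC was checked against its markers. Slamf1, which encodes CD150, was at 64.8, 88.4, 72.3 and 62.7 CPM in the aged libraries and at 31.8, 25.4, 23.0 and 24.6 CPM in the young ones, and it rose (log2 change 1.46 ± 0.391, adjusted p = 0.011). DESeq2 did not call it (adjusted p = 0.087, range 7.3e-08 to 0.087 over the alternatives). Cd48 stayed between 0 and 3.54 CPM in all 8 libraries, at 0, 0.203, 0.510 and 0 CPM in the aged and 0.356, 0.255, 3.54 and 0.837 CPM in the young LT-HSC. It fell (log2 change -2.77 ± 0.795, adjusted p = 0.017), but the log2 change was -1.54 without young library 3, where the call was lost (adjusted p = 0.11, range 0.00028 to 0.11), and -3.87 without aged library 3. limma-voom (0.093) and the fit without aged library 1 (0.051) did not call it either. Kit was at 1694 ± 82.6 CPM in the aged and 1452 ± 103 CPM in the young cells (log2 change 0.22 ± 0.0746, adjusted p = 0.036), a call that 11 of 17 alternatives did not keep (range 0.014 to 0.13). Ly6a, which encodes Sca1, did not pass (90.0 ± 18.8 CPM in the aged and 58.4 ± 7.19 CPM in the young cells, adjusted p = 0.15), although it did in the fit to the 8 LT-HSC libraries alone (0.0043, range 0.003 to 0.32). None of the 11 markers of LT-HSC was missing in either age, and their counts summed to 0.556% to 0.586% of an aged and 0.446% to 0.543% of a young library. Procr, the receptor EPCR of immature stem cells, rose (89.0 ± 15.4 CPM in the aged and 49.5 ± 11.0 CPM in the young cells, adjusted p = 0.0068). Flt3 and Cd34, genes of multipotent progenitors, fell. Flt3 was at 12.7, 10.3, 18.9 and 9.39 CPM in the aged and 26.7, 31.7, 28.4 and 28.0 CPM in the young LT-HSC, and Cd34 was at 76.9, 85.5, 87.1 and 93.4 CPM in the aged and 123, 187, 235 and 149.6 CPM in the young LT-HSC. Both ages were fully apart for both genes (log2 changes -1.17 and -1.02, adjusted p = 3.2e-06 and 8.4e-07).

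One library stood apart. On the second principal component of the 8 libraries, which held 13.6% of the variance, young library 1 was at -57.3 and the other 7 between -5.36 and 20.4. The first component, with 43.2%, had the aged libraries at -49.7 to -28.9 and the young ones at 36.0 to 44.8. In young library 1, 6 genes at 20 CPM or more were at least 10-fold above every other young library, among them the granule genes Mpo (682 CPM against a mean of 1.97 CPM in the other 3), Elane (106 against 0.207 CPM) and Ctsg (46.7 against 0 CPM). Mpo was the only one of the 6 called. Its log2 change was -8.31 (adjusted p = 0.012) with all libraries and -1.80 without young library 1 (0.60, range 2.2e-09 to 0.77). Granulocyte markers as a whole took 0.00690% to 0.00792% of counts in aged libraries, against 0.0971% in that young library and 0.00290% to 0.00431% in the other young ones. Without young library 1 the count of changed genes was 2603, against 2678 with it.

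Markers of other cells were present at low shares. T and NK cell markers took 0.00681% to 0.0112% of counts in aged and 0.00112% to 0.00168% in young libraries. Only Klrb1c of their 10 genes was called, and 6 of the 10 had no count in aged LT-HSC, Cd3e, Cd3g, Ncr1, Gzma and Prf1 among them. Of the other 3, Cd4 had 45 counts over the aged and 213 over the young libraries. Cd3d had 19 over the aged and 1 over the young libraries, and Gzmb 2 over the aged and 0 over the young. Monocyte and macrophage markers ran the other way, at 0.0253% to 0.0295% in aged and 0.0316% to 0.0364% in young libraries, and none of their 12 genes was called. Lyz2 among them was at 222 to 260 CPM in aged and 239 to 264 CPM in young libraries (marker levels are scaled by the plain library total). Erythroblast markers took 0.0853% to 0.0977% of counts in aged and 0.0812% to 0.125% in young libraries. None of their 11 genes was called, but Slc4a1, a red cell anion exchanger, was at 0, 0.101, 3.21 and 0 CPM in the aged and 0, 194, 26.9 and 17.6 CPM in the young libraries. Megakaryocyte and platelet markers took 0.155% to 0.173% in aged and 0.128% to 0.181% in young libraries, which overlap. The part of these cells in the results was not tested. The share of the 45S ribosomal RNA gene was 5.64% to 6.95% in aged and 6.85% to 10.9% in young libraries. Of 14 such shares 3 had an unadjusted p under 0.05, those of LT-HSC, T and NK cell and monocyte markers, and none passed after adjustment (exact permutation test, two-sided, lowest adjusted p = 0.13, smallest unadjusted p that 4 against 4 allow 0.0286).

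Of 14205 tested genes, 2678 (18.9%) passed the test of aged against young LT-HSC. Of these 1418 (9.98%) were higher and 1260 (8.87%) lower in the aged cells. The change was at least 2-fold for 807 of them (5.68% of tested genes), 482 higher (3.39%) and 325 lower (2.29%). All 4 aged libraries lay above all 4 young ones for 1778 genes (12.5%) and below them for 1367 (9.62%). In bulk libraries, fewer cells that express a gene and less of its RNA per cell cannot be told apart.

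**Figure D1:**
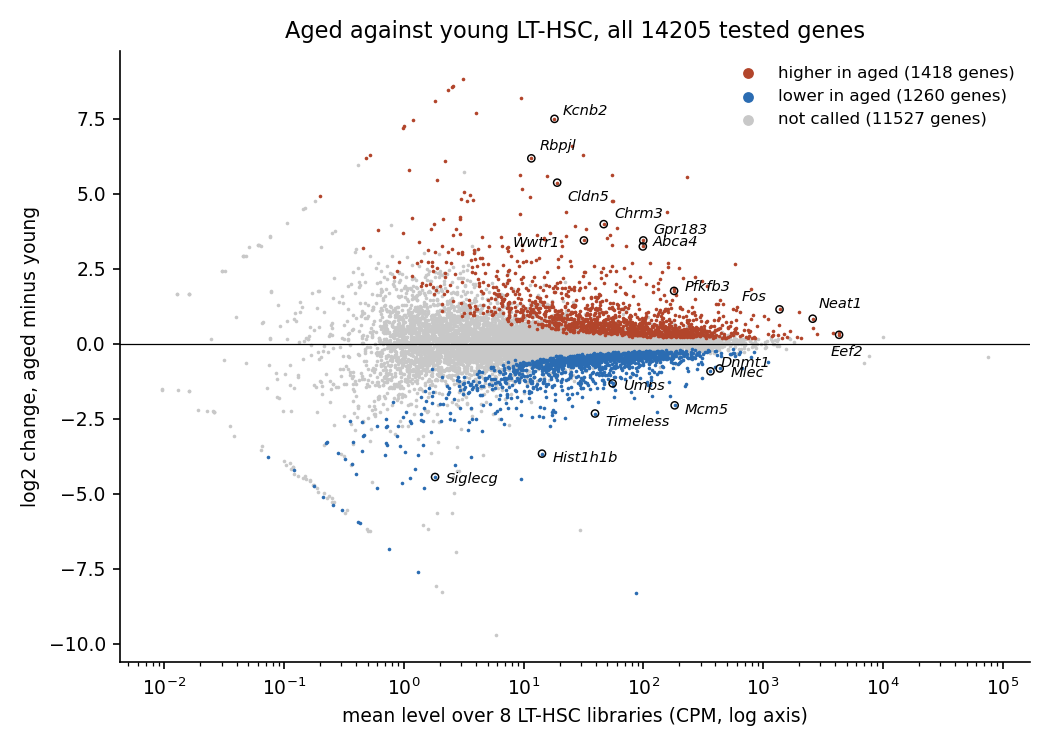
Log2 change, aged minus young LT-HSC, of the 14205 tested genes against their mean level in CPM (log axis), with higher genes in red, lower genes in blue and genes not called in grey. Named genes are circled, from Kcnb2 at 7.50 to Siglecg at -4.44, and Neat1 and Eef2 stand out at the abundant end with small changes.

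The 15 largest rises were sought among genes that averaged at least 10 CPM and lie outside the best known list. The voltage-gated potassium channel gene Kcnb2 (chromosome 1, 15286925 to 15723751, build mm10) was at 31.9, 57.6, 36.7 and 17.7 CPM in the aged and 0.830, 0, 0 and 0 CPM in the young LT-HSC (log2 change 7.50 ± 0.815, adjusted p = 2.3e-05). Rbpjl, a relative of the Notch effector Rbpj best known from pancreas acinar cells, was at 21.9, 27.9, 27.7 and 14.0 CPM in the aged and 0.237, 0.128, 0.417 and 0.380 CPM in the young libraries (log2 change 6.18 ± 0.528, adjusted p = 2.2e-07). Cldn5, a claudin of endothelial tight junctions, was at 32.3, 54.0, 36.0 and 26.7 CPM in the aged and 1.66, 0, 1.98 and 0 CPM in the young LT-HSC (log2 change 5.37 ± 0.869, adjusted p = 0.0003). In each of these 3 genes no young library passed 1.98 CPM and no aged library was under 14.0 CPM. Chrm3, the M3 muscarinic acetylcholine receptor, was at 88.9, 83.9, 83.7 and 94.9 CPM in the aged and 5.34, 1.53, 6.78 and 7.99 CPM in the young libraries, an even rise in all 4 aged libraries (log2 change 3.99 ± 0.401, adjusted p = 2.8e-07). Abca4, a lipid transporter known from photoreceptors, was at 218, 161, 174 and 164 CPM in the aged and 24.7, 14.6, 19.1 and 17.3 CPM in the young cells and had the smallest error of the group (log2 change 3.25 ± 0.201, adjusted p = 1.7e-11).

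Others were also among the 15 largest rises. Ccbe1, a secreted factor of lymphatic growth, was at 30.4 ± 7.76 CPM in the aged and 0.668 ± 0.852 CPM in the young cells. Dnm3, a dynamin that pinches membranes, was at 42.9 ± 9.06 CPM in the aged and 2.06 ± 1.42 CPM in the young cells. Tc2n was at 30.7 ± 7.41 CPM in the aged and 2.37 ± 1.67 CPM in the young cells and Fam169a at 41.9 ± 6.35 CPM in the aged and 3.58 ± 2.12 CPM in the young cells. The matrix protein gene Matn4 was at 96.6 ± 15.1 CPM in the aged and 7.81 ± 7.29 CPM in the young cells. Its span on chromosome 2 (164389393 to 164405160) overlaps that of Rbpjl (164403081 to 164415448), so their rises may not be independent. Whether Matn4 and Rbpjl share reads was not tested. Muc1, a transmembrane mucin, was at 52.0, 15.6, 19.9 and 21.0 CPM in the aged and 3.08, 2.30, 2.19 and 1.90 CPM in the young libraries, with aged library 1 well above the other aged ones (log2 change 3.52 ± 0.528, adjusted p = 3.5e-05). Klrb1c, which encodes the NK1.1 receptor of natural killer cells, was at 110.5, 86.7, 104 and 64.4 CPM in the aged and 7.83, 4.85, 8.34 and 10.6 CPM in the young libraries (log2 change 3.52 ± 0.620, adjusted p = 0.00049), while 6 of the 10 T and NK markers had no count in aged LT-HSC, as given above. Ramp2, the partner of the adrenomedullin receptor, was at 50.7, 37.3, 44.5 and 19.8 CPM in the aged and 11.5, 0.255, 0.730 and 3.27 CPM in the young libraries. The complement gene C4b, whose reads a close copy can share, was at 38.0 ± 12.4 CPM in the aged and 3.42 ± 1.82 CPM in the young cells. All of these rose, with log2 changes from 3.28 for Ramp2 to 5.60 for Ccbe1 and adjusted p from 3.6e-09 (Fam169a) to 0.0077 (Matn4). DESeq2 did not call Kcnb2 (adjusted p = 0.11, range 3.8e-07 to 0.11), Ccbe1 (0.089, range 7.1e-06 to 0.089) or Matn4 (0.079, range 9.5e-07 to 0.079). In the 8 libraries with the library number as a block, Matn4 (0.072) and Ramp2 (0.096, range 2.1e-05 to 0.096) lost their calls too. Without young library 1 the log2 changes were larger, at 11.38 for Kcnb2, 6.87 for Ccbe1, 4.99 for Dnm3 and 4.63 for Ramp2, and without young library 3 they were 6.15 for Cldn5 and 4.35 for Matn4.

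**Figure D2:**
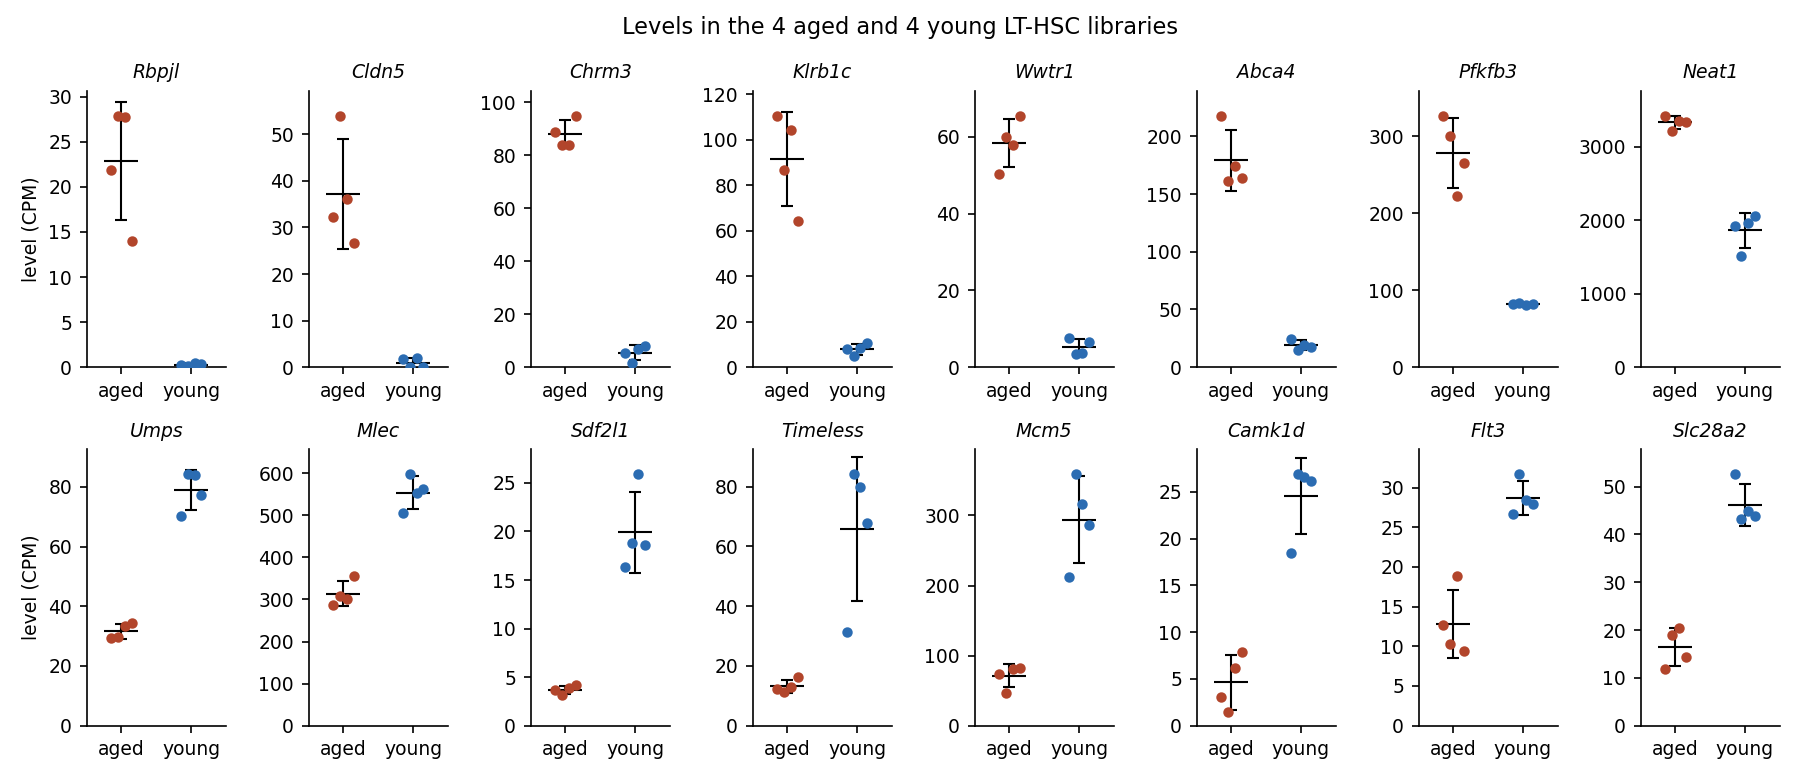
Levels in CPM (axes from 0) in each of the 4 aged and 4 young LT-HSC libraries, with mean and SD as bars, for 8 genes that rose (upper row) and 8 that fell (lower row). The ages do not overlap in any of the 16 genes, and Timeless and Mcm5 show young library 1 below the other young libraries.

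By amount of RNA, the largest gain outside the best known list and predicted models was in Neat1, a long noncoding RNA that builds nuclear paraspeckles. It was at 3427, 3212, 3356 and 3341 CPM in the aged and 1922, 1514, 1963 and 2059 CPM in the young libraries (log2 change 0.84 ± 0.115, adjusted p = 8.5e-06). The early response factors Egr1 (2717 ± 537 CPM in the aged and 1295 ± 289 CPM in the young libraries) and Fos (1892 ± 136 CPM in the aged and 853 ± 197 CPM in the young libraries) rose by 1.07 and 1.15 on the log2 scale (adjusted p = 0.0064 and 0.0038). Adgrg1, an adhesion receptor also called Gpr56, was at 4811 ± 357 CPM in the aged and 3776 ± 278 CPM in the young cells (adjusted p = 0.0043). Serinc3, a membrane protein, was at 3105 ± 343 CPM in the aged and 2129 ± 231 CPM in the young cells (adjusted p = 0.00042). Akap13, an anchor of protein kinase A, was at 3166 ± 210.1 CPM in the aged and 2505 ± 166 CPM in the young cells (adjusted p = 0.0006). With the same genes left out, the largest losses of RNA among genes that fell were in Tubb5, Ccnd2 and Mlec. Mlec, an endoplasmic reticulum lectin that binds immature sugar chains, was at 287, 309, 302 and 357 CPM in the aged and 505, 598, 552 and 562 CPM in the young LT-HSC, the most precisely measured of them (log2 change -0.82 ± 0.0709, adjusted p = 4.2e-09). Ccnd2, cyclin D2, was at 667 ± 90.9 CPM in the aged and 911 ± 103 CPM in the young cells (adjusted p = 0.0021). The tubulin gene Tubb5 was at 868 ± 168 CPM in the aged and 1311 ± 230.4 CPM in the young cells with overlapping ages (adjusted p = 0.015). Its call was lost without aged library 3 (0.052, range 0.0046 to 0.052).

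Lists of genes were described by how many tested members rose or fell, to be read against 9.98% and 8.87% of all tested genes. The median log2 change of a list stands beside 0.00 for all tested genes, a value that the scaling of the libraries tends to fix. The largest shares of falling members were in DNA repair (38.5%), cholesterol (29.3%), nuclear pore and importin (27.7%), nucleotide synthesis (25.5%) and amino acid synthesis genes (23.4%). The largest shares of rising members were in secreted or membrane-bound signaling ligands (26.1%), integrins and nuclear receptors (25.0% each) and G protein-coupled receptors (23.8%). Against 18.9% of all tested genes called in either direction, the smallest shares were 3.03% of 33 iron and heme genes, 10.6% of 47 imprinted genes, 11.1% of 45 Notch, Wnt and Hedgehog genes and 11.8% of 102 ribosome biogenesis genes.

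**Figure D3:**
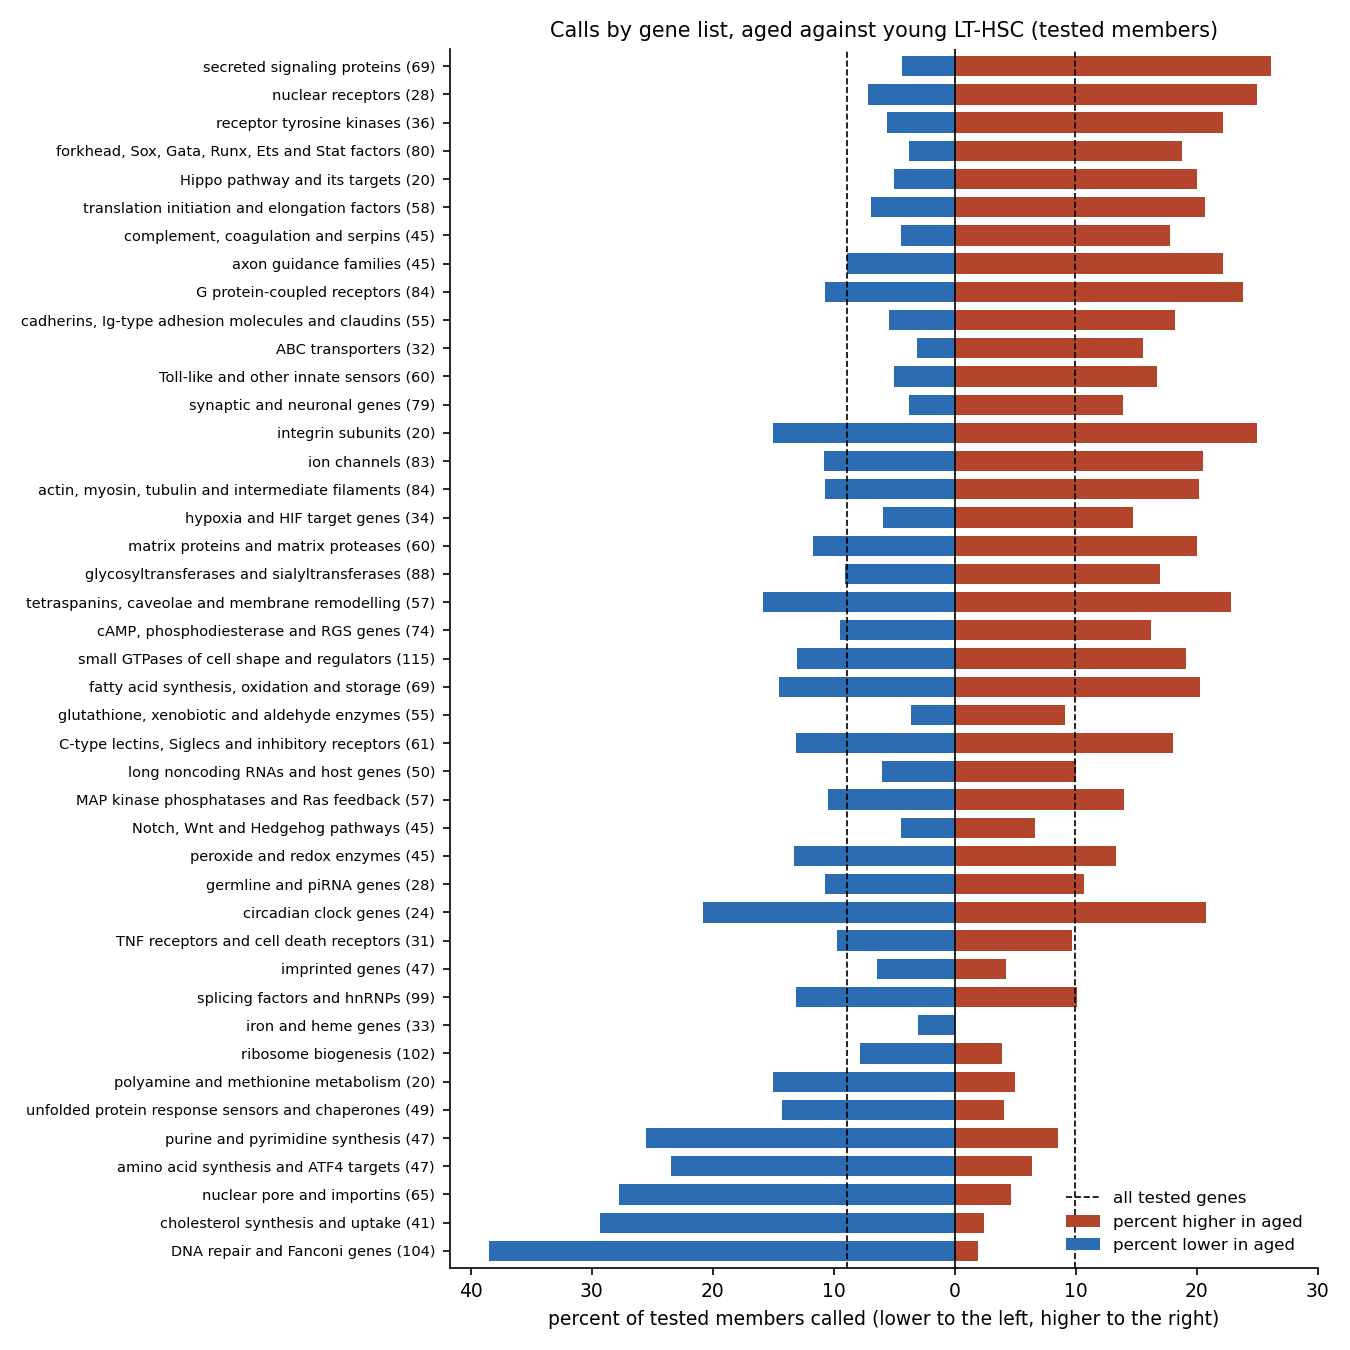
Percent of tested members of 43 gene lists that rose (red, to the right) or fell (blue, to the left) in aged LT-HSC, with the number tested in brackets and the shares of all tested genes, 9.98% and 8.87%, as dashed lines. DNA repair genes have the longest blue bar (38.5%). Signaling ligands, labeled as secreted signaling proteins though some are membrane-bound, have the longest red one (26.1%).

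Signals that cells send came first among the rising lists. Of 69 tested genes of secreted or membrane-bound signaling ligands 18 rose and 3 fell, with a median log2 change of 0.35. Tnfsf10, the death ligand TRAIL, was at 263, 312, 253 and 279 CPM in the aged and 167, 118, 144 and 163 CPM in the young libraries (log2 change 0.90 ± 0.114, adjusted p = 2.1e-06). Nrg4, a ligand of the receptor ErbB4, was at 42.7, 47.1, 36.7 and 52.0 CPM in the aged and 17.7, 9.32, 8.55 and 16.2 CPM in the young libraries (log2 change 1.78 ± 0.233, adjusted p = 3.7e-06), and the ages were again far apart. Cxcl16, a membrane-bound chemokine, was at 35.1 ± 7.35 CPM in the aged and 7.62 ± 2.45 CPM in the young cells (adjusted p = 5e-05). The exception among the 4 genes of smallest p was Il15, the cytokine that sustains natural killer and memory T cells, which fell (26.4 ± 1.43 CPM in the aged and 50.1 ± 10.8 CPM in the young cells, adjusted p = 7e-05). Pdgfb, Bmp4, Hgf and the membrane-bound Notch ligands Jag1, Jag2 and Dll1 were among the other members that rose.

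Larger shares of G protein-coupled receptors and receptor tyrosine kinases than of all tested genes rose. Of 84 tested G protein-coupled receptors 20 rose and 9 fell (median 0.26). Of 36 receptor tyrosine kinases 8 rose and 2 fell (median 0.31). Cysltr2, a leukotriene receptor, was at 71.1, 77.3, 81.2 and 66.8 CPM in the aged and 15.4, 12.0, 13.2 and 15.0 CPM in the young libraries (log2 change 2.41 ± 0.228, adjusted p = 2e-08). Adgrl4, an adhesion receptor of endothelium, was at 858 ± 84.2 CPM in the aged and 413 ± 34.5 CPM in the young cells (adjusted p = 4.4e-08). Lpar6, which binds lysophosphatidic acid, was at 92.4, 117, 90.0 and 78.0 CPM in the aged and 42.9, 36.7, 47.9 and 40.0 CPM in the young cells, so that the lowest aged library was well above the highest young one (log2 change 1.17 ± 0.119, adjusted p = 6.5e-08). P2ry14, a receptor for UDP-sugars, rose as well (138 ± 16.9 CPM in the aged and 73.2 ± 5.23 CPM in the young cells, adjusted p = 3.3e-07). Of the kinases, the PDGF receptor gene Pdgfrb was at 34.7, 29.1, 37.6 and 51.7 CPM in the aged and 13.3, 15.6, 17.1 and 17.0 CPM in the young libraries (log2 change 1.27 ± 0.144, adjusted p = 4.3e-07). Kdr, the VEGF receptor 2 of endothelium, was at 32.7 ± 4.12 CPM in the aged and 8.98 ± 3.39 CPM in the young cells (adjusted p = 0.0013). The insulin receptor gene Insr was at 306 ± 7.33 CPM in the aged and 246 ± 22.5 CPM in the young cells (adjusted p = 0.015). The Insr call was lost without aged library 2 (0.056) and without young libraries 2 (0.059) and 3 (0.072, range 0.0052 to 0.072). Endothelial markers as a whole took 0.0595% to 0.0736% of counts in aged and 0.0646% to 0.0757% in young libraries, which overlap. Receptors of the TNF family stayed near the background, with 3 of 31 up and 3 down. Tnfrsf1b, TNF receptor 2, rose (244 ± 11.6 CPM in the aged and 175 ± 21.5 CPM in the young cells, adjusted p = 0.00073). Tnfrsf13c, the BAFF receptor of B cells, fell (3.58 ± 0.741 CPM in the aged and 8.73 ± 1.79 CPM in the young cells, adjusted p = 0.0037).

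Genes by which cells hold on to their surroundings changed in both directions. Among 20 tested integrin subunits 5 rose and 3 fell (median 0.05). Itga6, the laminin-binding alpha 6 subunit, was at 549.7, 619.6, 552 and 576 CPM in the aged and 228, 221, 248 and 227 CPM in the young LT-HSC (log2 change 1.31 ± 0.0891, adjusted p = 5.2e-11). In contrast Itga9, a receptor for tenascin and osteopontin, was at 14.6, 7.83, 7.01 and 12.0 CPM in the aged and 31.3, 31.8, 36.1 and 48.3 CPM in the young libraries (log2 change -1.84 ± 0.213, adjusted p = 8.6e-07). Itgb5 fell too (1.88 ± 1.67 CPM in the aged and 11.9 ± 3.78 CPM in the young cells, adjusted p = 2.3e-06), with a log2 change of -2.68, or -3.51 without aged library 1. The myeloid integrin gene Itgam fell as well (3.97 ± 1.79 CPM in the aged and 8.87 ± 0.748 CPM in the young cells, adjusted p = 0.0034), but limma-voom did not call it (0.053, range 8e-05 to 0.053). Of 55 cadherins, immunoglobulin-type adhesion molecules and claudins 10 rose and 3 fell (median 0.29), with Cldn5 and the tricellular junction gene Lsr (46.2 ± 7.79 CPM in the aged and 25.1 ± 2.60 CPM in the young cells, adjusted p = 0.0013) among those that rose. Of 60 matrix genes 12 rose and 7 fell (median 0.08). Lama5, the laminin alpha 5 chain, was at 201, 237, 247 and 215 CPM in the aged and 77.1, 66.0, 70.1 and 76.1 CPM in the young libraries (log2 change 1.64 ± 0.233, adjusted p = 3.1e-05). The collagen crosslinking enzyme gene Loxl3 was at 47.7 ± 6.97 CPM in the aged and 21.6 ± 6.31 CPM in the young cells (adjusted p = 0.00067). The gelatinase Mmp2 (7.01 ± 1.09 CPM in the aged and 18.4 ± 4.30 CPM in the young cells, adjusted p = 0.00029) and the basement membrane collagen Col4a2 (62.9 ± 11.2 CPM in the aged and 111 ± 13.6 CPM in the young cells, adjusted p = 0.00055) fell. Of 45 axon guidance genes 10 rose and 4 fell (median 0.24). Plxna2, a semaphorin receptor, had one of the largest falls outside replication, at 3.63, 1.12, 8.42 and 4.39 CPM in the aged and 29.2, 35.4, 18.9 and 31.6 CPM in the young libraries (log2 change -2.72 ± 0.607, adjusted p = 0.003). Its relatives Plxnb2 (326 ± 22.2 CPM in the aged and 190.1 ± 29.5 CPM in the young cells, adjusted p = 0.00023) and Plxnc1 (889.9 ± 81.3 CPM in the aged and 665 ± 39.2 CPM in the young cells, adjusted p = 0.0008) and the semaphorin Sema6b (36.6 ± 5.97 CPM in the aged and 14.8 ± 4.22 CPM in the young cells, adjusted p = 0.00013) rose.

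Transcription factors and nuclear receptors came next. Of 80 forkhead, Sox, Gata, Runx, Ets and Stat factors with partners 15 rose and 3 fell (median 0.06). Stat3, the effector of cytokines of the interleukin 6 family, was at 537, 535, 525 and 543 CPM in the aged and 297, 322, 330.5 and 291 CPM in the young libraries, with little spread in either age (log2 change 0.79 ± 0.0917, adjusted p = 6.6e-07). Smaller rises were seen in Tcf4, an E protein (223 ± 9.71 CPM in the aged and 153 ± 7.96 CPM in the young cells, adjusted p = 1.9e-06), Fli1, an Ets factor of stem cells and megakaryocytes (344 ± 37.7 CPM in the aged and 242 ± 23.9 CPM in the young cells, adjusted p = 6.3e-05), and Lmo2, a bridging protein of the stem cell factor complex (1394 ± 39.1 CPM in the aged and 1035 ± 47.2 CPM in the young cells, adjusted p = 0.00014). Of 28 nuclear receptors 7 rose and 2 fell (median 0.30). The progesterone receptor gene Pgr was at 71.6, 71.0, 64.0 and 56.8 CPM in the aged and 10.9, 11.8, 10.4 and 10.8 CPM in the young LT-HSC of these male mice (log2 change 2.59 ± 0.353, adjusted p = 1.3e-05). Hnf4a, a regulator best known from liver, fell (6.90, 4.17, 14.2 and 13.9 CPM in the aged and 19.6, 56.6, 47.6 and 39.1 CPM in the young libraries, log2 change -2.07 ± 0.332, adjusted p = 0.00017). The retinoic acid receptor gene Rarb rose (61.0 ± 16.1 CPM in the aged and 21.4 ± 5.19 CPM in the young cells, adjusted p = 1.1e-06) together with 3 enzymes of retinoid metabolism from the list of detoxifying enzymes, of which 5 of 55 rose and 2 fell. Those were Dhrs3, which reduces retinal (51.8 ± 11.0 CPM in the aged and 10.8 ± 2.83 CPM in the young cells, adjusted p = 2.1e-09), Rdh10, which makes retinal (58.7 ± 9.79 CPM in the aged and 22.0 ± 2.37 CPM in the young cells, adjusted p = 1.6e-07), and Cyp26b1, which degrades retinoic acid (226 ± 16.6 CPM in the aged and 50.2 ± 18.2 CPM in the young cells, adjusted p = 3.9e-05).

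Of the Hippo pathway, 4 of 20 tested genes rose and 1 fell (median 0.14). Wwtr1, the coactivator TAZ, was at 50.2, 60.0, 57.9 and 65.5 CPM in the aged and 7.71, 3.32, 3.75 and 6.47 CPM in the young libraries (log2 change 3.45 ± 0.451, adjusted p = 9.2e-06). Amotl2, a binding partner and target of YAP and TAZ, was at 63.8, 86.4, 75.3 and 66.2 CPM in the aged and 18.6, 13.0, 15.7 and 16.3 CPM in the young libraries (log2 change 2.19 ± 0.302, adjusted p = 9.5e-06). Frmd6 was at 59.0 ± 1.57 CPM in the aged and 35.3 ± 8.60 CPM in the young cells (adjusted p = 0.00035). Notch, Wnt and Hedgehog genes were listed without the ligands Jag1, Jag2 and Dll1, which rose. The listed genes stayed under the background, with 3 of 45 higher and 2 lower (median 0.01). Within them the Wnt coreceptor Lrp5 (334 ± 37.2 CPM in the aged and 236 ± 15.1 CPM in the young cells, adjusted p = 0.00046) and the secreted Wnt inhibitor Sfrp1 (41.3 ± 6.05 CPM in the aged and 11.8 ± 4.37 CPM in the young cells, adjusted p = 0.003) rose. Lfng, a sugar transferase that tunes Notch, fell (15.4 ± 4.17 CPM in the aged and 33.4 ± 4.16 CPM in the young cells, adjusted p = 0.00012). Clock genes were called often but evenly, 5 up and 5 down of 24. Tef, an output factor of the clock, was at 27.3, 26.5, 23.7 and 30.9 CPM in the aged and 70.0, 53.8, 67.9 and 61.2 CPM in the young libraries (log2 change -1.22 ± 0.131, adjusted p = 1.8e-07). Per2 fell too (36.0 ± 1.97 CPM in the aged and 60.5 ± 3.71 CPM in the young cells, adjusted p = 4.5e-05). The repressor gene Nr1d2 rose (62.2 ± 9.94 CPM in the aged and 35.2 ± 2.54 CPM in the young cells, adjusted p = 0.00075). The labels give no time of day for the collection of marrow.

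Larger shares of several biosynthetic lists than of all tested genes fell. In nucleotide synthesis 12 of 47 tested genes fell and 4 rose, with a median log2 change of -0.20. Umps, which completes UMP, was at 29.4, 29.7, 33.4 and 34.3 CPM in the aged and 70.3, 84.3, 83.9 and 77.4 CPM in the young libraries, the smallest p of the list (log2 change -1.32 ± 0.100, adjusted p = 5.5e-10). Cad, which starts pyrimidine synthesis, was at 183, 169, 147 and 178 CPM in the aged and 254, 366, 266 and 297 CPM in the young libraries (log2 change -0.80 ± 0.121, adjusted p = 2.8e-05). Tyms, thymidylate synthase, was at 16.2 ± 4.26 CPM in the aged and 44.3 ± 8.09 CPM in the young cells (adjusted p = 6.9e-05). Pfas, an enzyme of purine synthesis, was at 157 ± 8.72 CPM in the aged and 243 ± 33.2 CPM in the young cells (adjusted p = 0.00011). In every one of these 4 genes the ages did not overlap. Members that rose included Xdh and Gda, which break purines down. Of 47 genes of amino acid synthesis and the ATF4 response 11 fell and 3 rose (median -0.09), among them Shmt1 (20.9 ± 3.48 CPM in the aged and 40.4 ± 7.33 CPM in the young cells, adjusted p = 2.1e-05) and Phgdh (51.8 ± 2.20 CPM in the aged and 80.9 ± 7.70 CPM in the young cells, adjusted p = 2.2e-05) of serine and glycine synthesis, which fell. Glutamine synthetase Glul (1014 ± 94.9 CPM in the aged and 576 ± 38.1 CPM in the young cells, adjusted p = 4.3e-07) and the lipoprotein receptor gene Vldlr (118 ± 26.5 CPM in the aged and 20.5 ± 6.86 CPM in the young cells, adjusted p = 1.3e-07) rose. In polyamine and methionine metabolism 3 of 20 fell and 1 rose, the spermidine acetylase gene Sat1 (80.1 ± 11.4 CPM in the aged and 30.8 ± 6.39 CPM in the young cells, adjusted p = 8.7e-07).

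Cholesterol synthesis and uptake had 12 of 41 genes lower, 1 higher, and a median log2 change of -0.31. Srebf2, the factor that drives this pathway, was at 263, 209, 208 and 206 CPM in the aged and 325, 376, 355 and 358 CPM in the young LT-HSC (log2 change -0.67 ± 0.105, adjusted p = 3.8e-05). The early enzymes Fdps (6.45 ± 2.27 CPM in the aged and 13.5 ± 2.38 CPM in the young cells, adjusted p = 0.0022) and Mvk (7.37 ± 2.51 CPM in the aged and 15.3 ± 4.05 CPM in the young cells, adjusted p = 0.0045) were low in both ages and fell. Hmgcs1, Sqle and Cyp51 were other members that fell, and the single one to rise was Soat1, which stores cholesterol as ester. Fatty acid genes moved in both directions, with 14 of 69 higher and 10 lower (median 0.09). The synthetic enzymes Scd2, a desaturase (156, 211, 179 and 233 CPM in the aged and 463, 441, 462 and 335 CPM in the young libraries, log2 change -1.12 ± 0.135, adjusted p = 1.9e-06), Fasn (291 ± 36.4 CPM in the aged and 502 ± 87.6 CPM in the young cells, adjusted p = 3.7e-05) and Acaca (47.1 ± 6.80 CPM in the aged and 85.5 ± 12.8 CPM in the young cells, adjusted p = 1.8e-05) fell. Cpt1a, which admits fatty acids to mitochondria for oxidation, rose to 556, 537, 586 and 527 CPM in aged libraries, against 287, 303, 288 and 349 CPM in young ones (log2 change 0.85 ± 0.104, adjusted p = 1.5e-06). The thioesterase gene Acot1, whose reads close copies can share, rose too (24.4 ± 3.75 CPM in the aged and 10.1 ± 1.69 CPM in the young cells, adjusted p = 1.5e-05).

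Among hypoxia genes 5 of 34 rose and 2 fell (median -0.03). Pfkfb3, an activator of glycolysis, was at 327, 301, 222 and 266 CPM in the aged and 82.1, 83.1, 81.3 and 81.9 CPM in the young libraries, which differed from each other by less than 2 CPM (log2 change 1.76 ± 0.116, adjusted p = 2.9e-11). Ndrg1 (283 ± 11.8 CPM in the aged and 123 ± 17.8 CPM in the young cells, adjusted p = 2.4e-09) and the glucose transporter gene Slc2a3 (289 ± 14.5 CPM in the aged and 201 ± 9.66 CPM in the young cells, adjusted p = 0.00037) rose. The collagen hydroxylase gene P4ha1 fell (26.8 ± 4.22 CPM in the aged and 42.6 ± 3.99 CPM in the young cells, adjusted p = 0.00058). Of 32 ABC transporters 5 rose and 1 fell (median 0.01). The drug efflux pump genes Abcb1b (81.6 ± 8.33 CPM in the aged and 42.7 ± 6.88 CPM in the young cells, adjusted p = 6.8e-06) and Abcg2 (101 ± 3.22 CPM in the aged and 73.6 ± 4.33 CPM in the young cells, adjusted p = 0.0011) were among those that rose, with Abca4. Peroxide and redox enzymes split evenly, 6 up and 6 down of 45. Ncf4, a subunit of the phagocyte oxidase, was at 0.726, 1.52, 0.255 and 1.83 CPM in the aged and 4.75, 7.41, 8.65 and 4.72 CPM in the young libraries (log2 change -2.51 ± 0.314, adjusted p = 1.9e-06). Its membrane partner gene Cyba fell as well (22.8 ± 2.89 CPM in the aged and 41.8 ± 8.28 CPM in the young cells, adjusted p = 0.0014).

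The list with the largest share of falling members was DNA repair, of which 40 of 104 tested genes fell, 2 rose (Fancc and Neil2) and 62 did not pass, with a median log2 change of -0.37. Several of those that fell also serve replication. Timeless, which guards replication forks, was at 12.3, 11.2, 12.9 and 16.2 CPM in the aged and 31.2, 84.2, 79.8 and 67.7 CPM in the young libraries (log2 change -2.32 ± 0.260, adjusted p = 1.8e-06). Pold1, the catalytic subunit of a replicative polymerase, was at 65.1, 51.9, 67.5 and 70.4 CPM in the aged and 111, 189, 179.5 and 172 CPM in the young libraries (log2 change -1.36 ± 0.173, adjusted p = 6.9e-06). Rpa2, which coats single-stranded DNA, was at 29.6 ± 1.15 CPM in the aged and 60.8 ± 14.6 CPM in the young cells (adjusted p = 1.6e-05). The checkpoint kinase gene Chek1 was at 6.89 ± 2.35 CPM in the aged and 23.7 ± 6.50 CPM in the young cells (adjusted p = 2.7e-05). Genes of homologous recombination (Brca1, Brca2, Rad54b), crosslink repair (Fanca, Fanci, Brip1), mismatch repair (Msh6, Exo1) and base excision (Xrcc1, Parp1, Apex1) were all among those that fell, by 0.47 to 1.67 on the log2 scale. In aged ST-HSC 1 of the 104 genes fell and none rose, where 2.21% of all tested genes fell and 3.58% rose. In aged MPP 2 fell and none rose, where 4.27% of all tested genes fell and 5.53% rose. For 15 of the 40 the age effect was called lower in LT-HSC than in ST-HSC, against 276 of all 1260 genes that fell (21.9%). For 11 of the 40 it was called lower than in MPP, against 434 of the 1260 (34.4%).

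Genes of replication were also among the largest falls at 10 CPM or more outside the best known list. Ung, which removes uracil from DNA, was at 4.48, 5.69, 4.21 and 7.68 CPM in the aged and 17.4, 36.8, 41.9 and 19.4 CPM in the young libraries (log2 change -2.38 ± 0.263, adjusted p = 4.1e-07). Mcm5, a subunit of the replicative helicase (chromosome 8, 75109468 to 75128439), was at 74.4, 46.9, 81.2 and 81.7 CPM in the aged and 212, 359, 317 and 287 CPM in the young libraries (log2 change -2.05 ± 0.211, adjusted p = 8.4e-07). Its partner Mcm6 was at 123 ± 7.58 CPM in the aged and 323 ± 67.9 CPM in the young cells (adjusted p = 6.6e-07). Factors of the start of replication fell as well, with Mcm10 at 6.03 ± 3.23 CPM in the aged and 28.5 ± 7.52 CPM in the young cells (adjusted p = 0.00074) and Cdc6 at 5.15 ± 1.84 CPM in the aged and 22.1 ± 8.05 CPM in the young cells (adjusted p = 0.00014). Rmi2, of the complex that dissolves recombination intermediates, was at 5.47 ± 2.58 CPM in the aged and 23.9 ± 3.48 CPM in the young cells (adjusted p = 1e-06). Dnmt1, which copies DNA methylation at the fork, was at 252 ± 53.4 CPM in the aged and 475 ± 75.8 CPM in the young cells (adjusted p = 0.00025). The linker histone gene Hist1h1b was at 5.56, 0.203, 0 and 2.93 CPM in the aged and 10.9, 13.2, 16.6 and 64.6 CPM in the young libraries, with young library 4 far above the others (log2 change -3.66 ± 0.877, adjusted p = 0.0063). The ribonucleotide reductase gene Rrm2 was at 12.5, 2.85, 3.57 and 8.66 CPM in the aged and 17.0, 19.8, 47.0 and 67.4 CPM in the young libraries (log2 change -2.49 ± 0.625, adjusted p = 0.0087). E2f8, a late repressor of the E2F family, was at 4.60, 0.813, 0.128 and 11.7 CPM in the aged and 18.0, 15.1, 23.2 and 34.2 CPM in the young libraries (log2 change -2.42 ± 0.590, adjusted p = 0.007). The last 3 genes were the least stable. Hist1h1b changed by -2.69 without young library 4 and by -4.74 without aged library 1, and it had adjusted p = 0.074 in the 8 libraries alone, 0.13 there with a block for the library number and 0.11 by limma-voom (range 0.00022 to 0.13). Rrm2 had 0.072 with that block and 0.054 by limma-voom (range 0.00023 to 0.072). E2f8 had 0.13 in the 8 libraries alone and 0.097 with the block (range 0.0003 to 0.13), with a change of -3.65 without aged library 4.

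Promoters of these genes were searched for the letters that E2F factors, the switches of S phase, bind best. Sequences of 300 bases, 250 before to 50 after the first listed start site, were available from RefSeq (GRCm38.p6) for 10647 of the 14205 tested genes. They were searched on both strands for TTCCCGC and for TTGGCGC, matches of which may overlap. Either form was found in 192 of 958 promoters of genes that fell (20.0%), 100 of 1040 of genes that rose (9.62%) and 1288 of all 10647 (12.1%). In the DNA repair list it was in 17 of 31 promoters of genes that fell (54.8%) and 15 of 50 of the other tested members (30.0%). Among genes that fell, the share was 28.8% of 205 where the age effect was also called lower than in ST-HSC, and 17.7% of the other 753. The same windows were also searched for CRE (TGACGTCA), AP-1 (TGANTCA), a sterol element (TCACNCCAC) and the CCAAT box, with N for any base. The CCAAT box was in 40.9% of promoters of genes that fell, 33.1% of those that rose and 38.1% of all. For CRE these shares were 2.30%, 2.60% and 3.14%, for AP-1 3.97%, 6.15% and 5.14%, and for the sterol element 1.15%, 1.06% and 1.06%. In the DNA repair list the CCAAT box was in 61.3% of promoters of genes that fell and 56.0% of the others. Such matches describe the letters of a window and are no measure of binding. To show E2F matches in place, promoters of 4 genes that fell are given beside that of Muc1, which rose and holds an E2F match as well. They run 5′ to 3′ on the gene's strand, with E2F matches on either strand in capitals.
Mcm5 (chr8:75109259-75109558, strand +): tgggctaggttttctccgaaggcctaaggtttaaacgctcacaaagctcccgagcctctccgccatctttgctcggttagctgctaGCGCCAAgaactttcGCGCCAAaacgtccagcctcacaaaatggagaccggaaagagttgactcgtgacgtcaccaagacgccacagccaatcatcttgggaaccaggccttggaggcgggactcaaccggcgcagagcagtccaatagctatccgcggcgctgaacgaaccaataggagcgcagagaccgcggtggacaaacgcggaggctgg
Mcm6 (chr1:128359656-128359955, strand -): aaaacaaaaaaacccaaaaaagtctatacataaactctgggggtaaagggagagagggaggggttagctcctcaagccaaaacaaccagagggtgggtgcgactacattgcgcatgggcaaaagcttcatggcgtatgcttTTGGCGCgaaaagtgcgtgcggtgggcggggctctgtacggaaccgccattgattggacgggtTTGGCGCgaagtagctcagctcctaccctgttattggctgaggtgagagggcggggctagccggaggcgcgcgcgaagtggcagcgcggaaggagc
Pold1 (chr7:44548766-44549065, strand -): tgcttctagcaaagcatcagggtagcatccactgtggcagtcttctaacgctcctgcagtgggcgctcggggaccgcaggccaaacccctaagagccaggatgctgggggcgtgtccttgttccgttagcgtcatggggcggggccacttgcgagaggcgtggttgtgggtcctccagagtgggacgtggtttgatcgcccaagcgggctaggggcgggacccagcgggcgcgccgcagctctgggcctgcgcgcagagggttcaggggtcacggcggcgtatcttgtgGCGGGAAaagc
E2f8 (chr7:48881547-48881846, strand -): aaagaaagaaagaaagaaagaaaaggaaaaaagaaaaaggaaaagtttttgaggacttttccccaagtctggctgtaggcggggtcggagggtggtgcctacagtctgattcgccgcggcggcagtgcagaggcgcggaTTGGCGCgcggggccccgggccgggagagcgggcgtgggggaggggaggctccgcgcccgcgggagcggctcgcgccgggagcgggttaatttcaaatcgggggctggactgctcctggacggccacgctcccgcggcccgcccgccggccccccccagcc
Muc1 (chr3:89228806-89229105, strand +): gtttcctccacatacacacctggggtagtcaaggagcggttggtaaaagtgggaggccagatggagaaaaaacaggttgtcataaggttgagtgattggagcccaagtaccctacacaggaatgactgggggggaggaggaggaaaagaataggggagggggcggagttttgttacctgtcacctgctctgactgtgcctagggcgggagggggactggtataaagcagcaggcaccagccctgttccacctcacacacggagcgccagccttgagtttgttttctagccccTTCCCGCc

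Mcm5 and Mcm6 each hold 2 matches to TTGGCGC, on the minus strand in Mcm5 and on the plus strand in Mcm6. Pold1 and Muc1 each hold 1 match to TTCCCGC, both after the start site, and E2f8 holds 1 match to TTGGCGC before it.

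A larger share of nuclear transport genes than of all tested genes fell. Of 65 nuclear pore, importin and lamina genes 18 fell and 3 rose (median -0.14). The lamin gene Lmnb2 was at 29.8, 34.0, 32.9 and 52.0 CPM in the aged and 62.4, 76.6, 59.4 and 76.2 CPM in the young libraries (log2 change -0.89 ± 0.154, adjusted p = 0.00016). Ran, the GTPase that gives transport its direction, was at 148 ± 16.7 CPM in the aged and 207 ± 19.4 CPM in the young cells (adjusted p = 0.0006). The pore gene Nup62 was at 67.1 ± 14.5 CPM in the aged and 103 ± 8.10 CPM in the young cells (adjusted p = 0.00025) and the importin gene Ipo5 at 175 ± 26.6 CPM in the aged and 252 ± 31.1 CPM in the young cells (adjusted p = 0.00099). Ribosome biogenesis stayed under the background, with 8 of 102 lower and 4 higher (median -0.11), such as Rrp9, a U3 snoRNP protein (20.2 ± 1.48 CPM in the aged and 32.5 ± 4.24 CPM in the young cells, adjusted p = 0.0022), and Nol10 (65.8 ± 16.3 CPM in the aged and 39.8 ± 6.16 CPM in the young cells, adjusted p = 0.00088), which rose. Translation factors leaned upward, 12 of 58 higher and 4 lower, although the median was 0.01. Eef2, the ribosome translocase, was at 4806, 4618, 4956 and 4642 CPM in the aged and 3852, 3850.5, 3710.0 and 4021 CPM in the young libraries, a small but even rise (log2 change 0.30 ± 0.0610, adjusted p = 0.00081). Eef1a1, which delivers transfer RNA and has many processed copies in the genome, was at 4309.8 ± 569.7 CPM in the aged and 3361 ± 329 CPM in the young cells (adjusted p = 0.033). Its call was lost with no count filter (0.064) and without any 1 of 7 libraries, every one but aged library 4 (up to 0.15, range 0.011 to 0.15). Eif1a, a start codon scanning factor, was at 119 ± 13.1 CPM in the aged and 75.1 ± 10.5 CPM in the young cells (adjusted p = 0.00038). Of 99 splicing genes 13 fell and 10 rose (median -0.01), among them Snrpb of the spliceosome core (56.7 ± 2.28 CPM in the aged and 92.2 ± 12.3 CPM in the young cells, adjusted p = 0.00044) and Srsf7 (173 ± 16.6 CPM in the aged and 233 ± 2.46 CPM in the young cells, adjusted p = 0.00028), which fell. The splicing kinase gene Clk3 rose (129.7 ± 16.9 CPM in the aged and 95.4 ± 12.2 CPM in the young cells, adjusted p = 0.0024). Of 49 genes of the unfolded protein response 7 fell and 2 rose (median -0.11). Sdf2l1, a cofactor of the chaperone BiP, was at 3.63, 3.15, 3.83 and 4.15 CPM in the aged and 16.3, 18.8, 25.9 and 18.6 CPM in the young libraries, without overlap and with little spread (log2 change -2.43 ± 0.282, adjusted p = 1e-06). The disulfide isomerase gene Pdia6 fell by less (58.3 ± 6.47 CPM in the aged and 86.9 ± 5.22 CPM in the young cells, adjusted p = 0.0026).

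Inside the cell, signaling and shape genes moved in both directions. Of 74 cAMP, phosphodiesterase and RGS genes 12 rose and 7 fell (median 0.03). Adenylate cyclases diverged. Adcy9 was at 291, 297, 321 and 279.6 CPM in the aged and 159, 182, 157 and 182 CPM in the young libraries (log2 change 0.81 ± 0.0893, adjusted p = 3e-07). Adcy3 was at 14.8, 5.79, 11.9 and 11.7 CPM in the aged and 33.1, 39.9, 36.2 and 32.5 CPM in the young libraries (log2 change -1.69 ± 0.191, adjusted p = 4.2e-07). Pde9a, which breaks down cGMP, rose (32.9 ± 7.74 CPM in the aged and 5.54 ± 1.94 CPM in the young cells, adjusted p = 6.8e-06). The G protein gene Gna15 fell (32.5 ± 5.17 CPM in the aged and 53.1 ± 6.50 CPM in the young cells, adjusted p = 0.00019). Of 115 small GTPases of cell shape and their regulators 22 rose and 15 fell (median 0.02). Arhgef28, an activator of RhoA, was at 165, 165, 119.8 and 165 CPM in the aged and 24.9, 41.9, 24.9 and 39.0 CPM in the young libraries (log2 change 2.23 ± 0.242, adjusted p = 1e-06). Dock9, an activator of Cdc42, rose (288 ± 42.7 CPM in the aged and 129 ± 12.9 CPM in the young cells, adjusted p = 4.5e-06). Arhgap30, which turns such GTPases off, fell (69.9 ± 20.7 CPM in the aged and 161 ± 15.0 CPM in the young cells, adjusted p = 2.2e-07). Of 84 cytoskeletal genes 17 rose and 9 fell (median 0.00), with the intermediate filament genes Krt18 up (146 ± 12.7 CPM in the aged and 84.6 ± 13.3 CPM in the young cells, adjusted p = 5.5e-05) and Vim down (129.6 ± 20.1 CPM in the aged and 226 ± 44.4 CPM in the young cells, adjusted p = 2.2e-05). Among phosphatases and Ras inhibitors 8 of 57 rose and 6 fell (median 0.08), as Dusp4 (64.4 ± 6.97 CPM in the aged and 31.0 ± 7.63 CPM in the young cells, adjusted p = 0.00086) and the Ras inhibitor gene Rasal3 (139.7 ± 13.5 CPM in the aged and 215 ± 25.3 CPM in the young cells, adjusted p = 3.3e-05) show. Ion channels rose for 17 of 83 and fell for 9 (median 0.16). Itpr1, the calcium release channel, was at 639 ± 49.0 CPM in the aged and 426 ± 33.7 CPM in the young cells (adjusted p = 1.1e-05). The potassium channel gene Kcna3 was at 7.14, 9.25, 10.5 and 11.3 CPM in the aged and 21.5, 26.7, 28.7 and 23.8 CPM in the young libraries (log2 change -1.40 ± 0.139, adjusted p = 4.5e-08). The glutamate receptor gene Gria3 was at 23.2 ± 8.07 CPM in the aged and 51.7 ± 4.73 CPM in the young cells (adjusted p = 1.5e-05). Itpr1 rose and the other two fell. Further genes of large fall were the calmodulin kinase gene Camk1d (3.02, 1.42, 6.12 and 7.93 CPM in the aged and 18.5, 26.9, 26.6 and 26.2 CPM in the young libraries, log2 change -2.43 ± 0.313, adjusted p = 8.9e-06) and Socs2, an inhibitor of growth hormone and cytokine signals (6.24 ± 2.30 CPM in the aged and 29.1 ± 7.84 CPM in the young cells, adjusted p = 0.00041). Nrk fell too (6.29 ± 4.73 CPM in the aged and 30.2 ± 8.53 CPM in the young cells, adjusted p = 0.027). Nrk lost its call in 6 of 17 alternatives, up to 0.19 in the 8 libraries with a block (range 0.0019 to 0.19).

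Immune surface and sensor genes changed in both directions. Of 61 lectins, Siglecs and inhibitory receptors 11 rose and 8 fell (median 0.00). For 7 of the 8 that fell the age effect was also called lower in LT-HSC than in ST-HSC, as it was for 21.9% of all genes that fell. Siglecg, an inhibitory Siglec of B cells, was at 0, 0.102, 0.510 and 0 CPM in the aged and 4.51, 2.04, 5.42 and 1.98 CPM in the young libraries (log2 change -4.44 ± 0.548, adjusted p = 1.5e-06, or -6.09 without aged library 3). Ly9, a SLAM family receptor, was at 4.60, 8.84, 6.25 and 5.73 CPM in the aged and 21.6, 10.3, 20.7 and 17.3 CPM in the young libraries (log2 change -1.45 ± 0.207, adjusted p = 1.1e-05). Ubash3a, a brake on T cell receptor signals, was low in both ages and fell (0.397 ± 0.401 CPM in the aged and 2.97 ± 0.855 CPM in the young cells, adjusted p = 2.2e-05, log2 change -2.95 or -3.66 without aged library 4). Cd276, the checkpoint molecule B7-H3, rose (17.1 ± 3.51 CPM in the aged and 5.52 ± 2.09 CPM in the young cells, adjusted p = 2.8e-05). B and plasma cell markers took 0.00190% to 0.00334% of counts in aged and 0.00204% to 0.00255% in young libraries, which overlap. Of 60 innate sensors 10 rose and 3 fell (median 0.11). The interleukin 1 receptor gene Il1r1 was at 30.1, 35.5, 36.5 and 38.0 CPM in the aged and 16.4, 8.43, 9.49 and 12.2 CPM in the young libraries (log2 change 1.59 ± 0.166, adjusted p = 1.5e-07). Irak3, which restrains that pathway, was at 161 ± 19.9 CPM in the aged and 83.1 ± 9.19 CPM in the young cells (adjusted p = 6.3e-07). Among sensors that fell were the inflammasome gene Nlrp1a (3.98 ± 1.74 CPM in the aged and 15.0 ± 5.07 CPM in the young cells, adjusted p = 6.4e-06), whose family holds close copies, and Mb21d1, the DNA sensor cGAS (9.09 ± 1.01 CPM in the aged and 20.4 ± 4.06 CPM in the young cells, adjusted p = 3.7e-05). Complement and coagulation genes rose for 8 of 45 and fell for 2 (median 0.17), with thrombomodulin Thbd at 46.5 ± 9.85 CPM in the aged and 12.8 ± 4.93 CPM in the young cells (adjusted p = 1.9e-05) and the urokinase receptor gene Plaur at 56.6 ± 18.6 CPM in the aged and 25.8 ± 7.37 CPM in the young cells (adjusted p = 0.003). Among 57 tetraspanin and membrane genes 13 rose and 9 fell (median 0.10). Anxa6, an annexin that binds membranes with calcium, was at 22.6, 23.7, 27.0 and 23.5 CPM in the aged and 68.6, 66.3, 76.9 and 57.4 CPM in the young libraries (log2 change -1.47 ± 0.123, adjusted p = 2.4e-09). The tetraspanins Cd53 (54.3 ± 22.2 CPM in the aged and 10.5 ± 2.23 CPM in the young cells, adjusted p = 1e-06) and Cd37 (39.7 ± 7.50 CPM in the aged and 69.0 ± 10.3 CPM in the young cells, adjusted p = 0.00012) changed in opposite directions, up and down.

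Sugar-transfer genes rose for 15 of 88 and fell for 8 (median 0.07). St3gal1, a sialyltransferase that caps mucin-type chains, was at 1361, 1308, 1387 and 1247 CPM in the aged and 744, 744, 633 and 698 CPM in the young libraries (log2 change 0.91 ± 0.0881, adjusted p = 2.9e-08). Galnt6 (402 ± 32.6 CPM in the aged and 208 ± 36.8 CPM in the young cells, adjusted p = 1.6e-07) and Fut8, which adds core fucose (359 ± 46.2 CPM in the aged and 173 ± 24.3 CPM in the young cells, adjusted p = 8.4e-07), rose too. Of 47 imprinted genes 2 rose and 3 fell, shares under those of all tested genes, with Impact up (151 ± 7.64 CPM in the aged and 96.3 ± 7.98 CPM in the young cells, adjusted p = 2e-05) and the cation transporter gene Slc22a3 down (31.1 ± 7.50 CPM in the aged and 70.3 ± 18.5 CPM in the young cells, adjusted p = 3.2e-05). Of 50 listed noncoding RNAs 5 rose and 3 fell (median 0.12). Besides Neat1 these included Lincpint, a p53-induced RNA (126 ± 20.9 CPM in the aged and 73.6 ± 4.79 CPM in the young cells, adjusted p = 2.5e-05), and Mir155hg, host of miR-155 (13.0 ± 3.82 CPM in the aged and 4.03 ± 2.06 CPM in the young cells, adjusted p = 0.00095). Synaptic and neuronal genes rose for 11 of 79 and fell for 3 (median 0.12), as in Stxbp5, a brake on vesicle fusion (469 ± 19.3 CPM in the aged and 307 ± 26.2 CPM in the young cells, adjusted p = 9.7e-06). Germline genes (3 up and 3 down of 28) stayed near the background.

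A small group of genes was almost absent from one age. Genes with at most 3 counts summed over the libraries of one age and at least 1 CPM in each library of the other were sought, leaving out predicted models. There were 12 found in aged and 2 found in young LT-HSC, most of them low in counts. The metallothionein gene Mt2, of the best known list, had 154, 283, 136 and 86 counts in aged libraries against 0, 0, 2 and 0 in young ones, a ratio of 367 with a 95% counting interval of 101 to 3040 (adjusted p = 0.0019, 0.051 by limma-voom, range 4.9e-08 to 0.051, log2 change 8.18 or 10.44 without young library 3). Ripk4, a kinase of epithelial differentiation, had 69, 50, 101 and 45 counts in aged and 0, 0, 0 and 1 in young libraries, a ratio of 295 (52.5 to 11700, adjusted p = 3.6e-05, log2 change 7.70 or 9.16 without young library 4). Against a floor of 3 counts over the 4 young libraries, which had none, Rcvrn, a calcium sensor of photoreceptors, was at least 77.2-fold higher (208 counts in aged libraries). On the same floor the homeobox gene Zfhx4 was at least 67.2-fold higher (181 counts), the receptor gene Glp2r at least 61.6-fold (166 counts) and the tumor suppressor gene Rassf10 at least 58.7-fold (158 counts). Their adjusted p-values were 0.00048 for Glp2r, 0.00031 for Rcvrn (0.21 by DESeq2, range 1.6e-07 to 0.21), 0.0014 for Zfhx4 and 0.00058 for Rassf10. Counts varied between aged libraries, at 63, 68, 8 and 42 for Zfhx4 and 63, 17, 71 and 15 for Glp2r. Rcvrn (chromosome 11, 67695326 to 67703355) lies inside the span of Glp2r (67664156 to 67771184), so their rises may not be independent. Whether these genes share reads was not tested. The other 6 were Gabra4, Wnt5a, Caps2, Gipc2, Cpeb1 and Ntf3. In the other direction Il9r, the interleukin 9 receptor gene, had no count in aged libraries and 27, 25, 23 and 23 in young ones, and was at least 29.3-fold lower in aged cells (adjusted p = 0.00071). Nespas had 0, 3, 0 and 0 counts in aged and 18, 23, 20 and 21 in young libraries, 24.5-fold lower in aged LT-HSC (8.11 to 121, adjusted p = 0.0072, log2 change -4.48 or -7.34 without aged library 2). It is an antisense RNA at the imprinted Gnas locus, and the library chemistry as described marks no strand, so its reads and those of the opposite gene cannot be told apart. These intervals and floors cover counting error only.

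Most of the change with age in LT-HSC was not called in the other populations. Of the 1418 genes that rose in aged LT-HSC, 267 (18.8%) also rose in aged ST-HSC and 226 (15.9%) in aged MPP, where 3.58% and 5.53% of all tested genes rose. Of the 1260 that fell, 122 (9.68%) fell in ST-HSC and 115 (9.13%) in MPP, where 2.21% and 4.27% of all tested genes fell. The difference itself was tested as an interaction. The age effect differed between LT-HSC and ST-HSC for 575 genes (4.05%), 235 higher (1.65%) and 340 lower (2.39%) in LT-HSC. Between LT-HSC and MPP it differed for 1411 (9.93%), 717 higher (5.05%) and 694 lower (4.89%). Of the genes that rose in LT-HSC 192 rose more than in ST-HSC and 447 more than in MPP by this test, 148 more than in both. Of those that fell, 276 fell more than in ST-HSC, 434 more than in MPP and 226 more than in both. The count of 575 was 377 without young LT-HSC library 3 and 944 by DESeq2, and the count of 192 was 126, 125 and 117 without aged library 2, young library 2 and young library 3 and 305 by DESeq2. The count of 276 was 416 by DESeq2. The LT-HSC libraries are shared by both differences.

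The genes of smallest p in these differences were of receptors, adhesion and transport. Gpr183, an oxysterol receptor of the best known list, was at 221, 176, 197 and 137 CPM in the aged and 21.7, 15.3, 12.6 and 17.3 CPM in the young LT-HSC, a log2 change of 3.45, against -0.07 in ST-HSC and 0.25 in MPP (differences 3.52 and 3.19, adjusted p = 1.7e-10 and 1.5e-09). Alcam, an adhesion molecule, rose by 2.19 in LT-HSC and stood at 0.11 in ST-HSC and -0.05 in MPP (differences 2.09 and 2.24, adjusted p = 2.5e-08 and 5.9e-09). Slc28a2, a nucleoside importer, was at 11.9, 19.0, 20.5 and 14.3 CPM in the aged and 52.6, 43.3, 44.8 and 43.9 CPM in the young LT-HSC, and the change of -1.49 stood against 0.39 in ST-HSC and 0.57 in MPP (adjusted p of the differences 4.9e-07 and 4.6e-08). Kcna3 fell in LT-HSC and rose in ST-HSC (0.45, difference -1.85, adjusted p = 5.7e-07). Enpp5, an ectoenzyme of the best known list, rose by 2.04 in LT-HSC and was at 0.30 in ST-HSC (adjusted p of the difference 1.1e-06). St3gal1 rose in LT-HSC and fell in MPP (-0.38, difference 1.29, adjusted p = 2e-07). Pfkfb3 (difference 1.47, adjusted p = 2.3e-06), Mlec (difference -0.79, adjusted p = 1.7e-05), Umps (difference -1.18, adjusted p = 6.4e-06), Mcm5 (difference -1.98, adjusted p = 0.00037) and Sdf2l1 (difference -3.15, adjusted p = 1.5e-05) also differed from ST-HSC. By contrast, the differences of Egr1 (difference -0.05, adjusted p = 0.97), Fos (difference 0.19, adjusted p = 0.85) and Cpt1a (difference 0.12, adjusted p = 0.74) from ST-HSC were not called. Each of these rose in all 3 populations. A difference that was not called does not show that the age effects were alike.

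**Figure D4:**
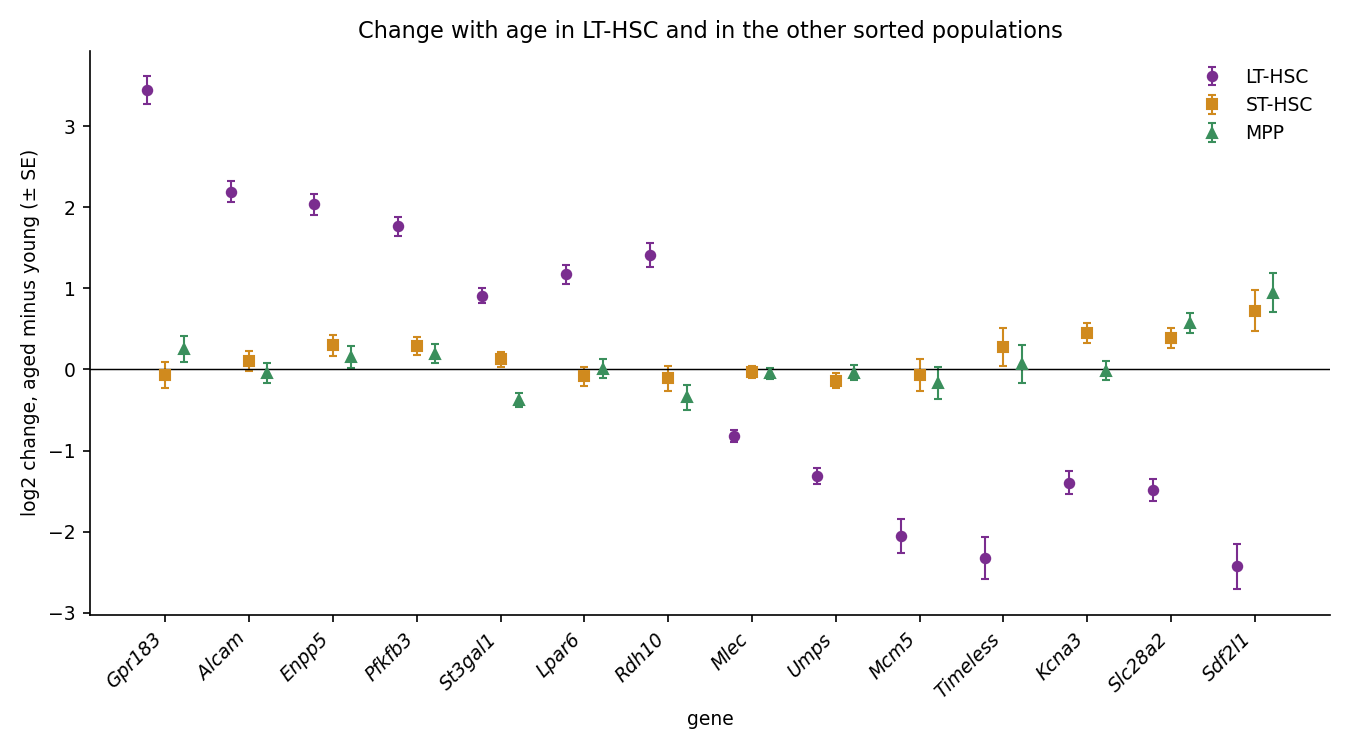
Log2 change, aged minus young, with ± SE, of 14 genes in LT-HSC (circles), ST-HSC (squares) and MPP (triangles). Gpr183, Alcam and Enpp5 lie above 2 in LT-HSC and under 0.5 elsewhere, and Sdf2l1 lies at -2.43 in LT-HSC and above 0.5 in the other populations.

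The direction of change was also set beside differentiation, taken as young MPP against young ST-HSC, which uses no LT-HSC library. In that comparison 1434 genes (10.1%) were higher and 1495 (10.5%) lower in MPP. Of the genes that rose in aged LT-HSC 401 (28.3%, or 26.8% of the genes lower in MPP) were lower in MPP and 60 (4.23%) higher. Of those that fell 441 (35.0%, or 30.8% of the genes higher in MPP) were higher in MPP and 74 (5.87%) lower. The median log2 difference between young MPP and young ST-HSC was -0.21 for the genes that rose and 0.25 for those that fell.

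Calls also varied with the genomic span of the gene, from start to end with introns. Of protein-coding genes under 5 kb 6.53% rose and 9.18% fell in aged LT-HSC, and of those over 200 kb 19.5% rose and 6.83% fell. The share that rose was larger in each bin from 20 kb up than in the bin before. In ST-HSC 3.56% of the shortest and 4.88% of the longest genes rose, and in MPP 7.11% and 5.37%. Library by library, the median log2 level of 1249 genes over 100 kb minus that of 1977 genes under 10 kb, all averaging at least 10 CPM and each centred on its own mean over the 8 libraries, was 0.070, 0.103, 0.127 and 0.115 in aged and 0.022, -0.104, -0.211 and -0.102 in young LT-HSC. All aged libraries were higher (exact permutation test, two-sided, p = 0.0286, the smallest 4 against 4 can give, 0.0858 adjusted over 3 populations). The ages overlapped in ST-HSC and MPP (exact permutation test, p = 0.800 and 0.0857). This measure was added after the calls by span had been seen. By chromosome, the share that rose ran from 6.79% on chromosome 2 to 16.3% on chromosome 18, where 59 of 362 tested genes rose and 21 (5.80%) fell. Of 660 long noncoding RNAs by annotation 62 (9.39%) rose and 28 (4.24%) fell.

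**Figure D5:**
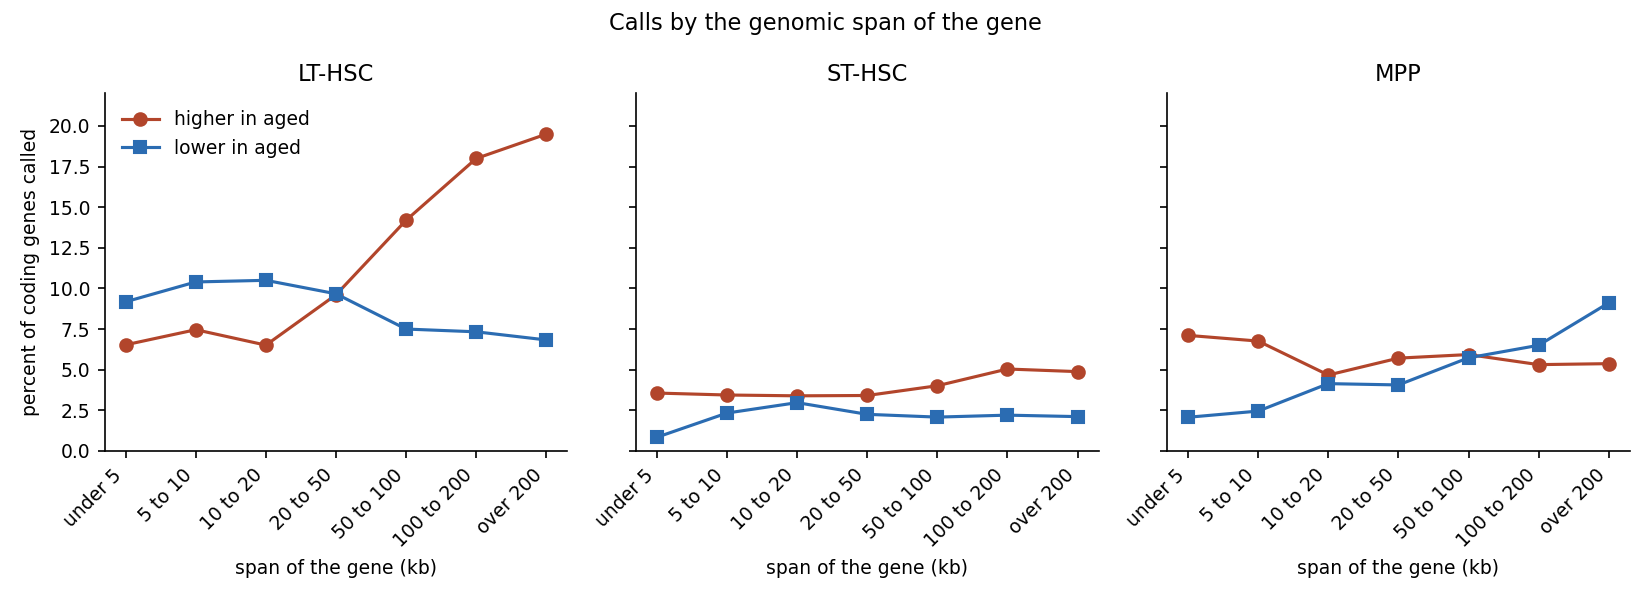
Percent of tested protein-coding genes that rose (red) or fell (blue) with age, by genomic span in kb, in LT-HSC, ST-HSC and MPP. In LT-HSC the red line climbs to 19.5% over 200 kb, while in ST-HSC it stays at or under 5.04% and in MPP at or under 7.11%.

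The spread between libraries was alike in size at both ages. Over 9770 genes with a mean of at least 10 CPM the median SD of log2 levels was 0.167 in aged and 0.167 in young LT-HSC, and the aged SD was larger for 50.1% of the genes. Without young library 1 the young median was 0.134 and the aged SD was larger for 61.8%.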

How the data were processed

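Bulk RNA-seq libraries were made with PrimeScript reverse transcriptase and not-so-random primers, Klenow second-strand synthesis and Nextera XT, per the labels' protocols, which mention no molecular identifiers. The tools named in the submitters' processing notes are HISAT2, featureCounts and Trim Galore, with build mm10 and no version. The authors deposited raw counts per gene for all 24 libraries. The fit used edgeR 4.0.16 (R 4.3.3), with TMM scaling, filterByExpr (14205 of 24421 genes, 99.9% of counts), robust quasi-likelihood tests, 6 group means and 18 residual degrees of freedom, and Benjamini-Hochberg adjustment (biological coefficient of variation 0.213). Alternatives were limma-voom (limma 3.58.1), DESeq2 1.42.0, other scalings, no filter, blocks, the 8 LT-HSC libraries alone and each library left out. In simulated counts for the aged against young LT-HSC comparison (14020 genes) the procedure recovered 94% of 100 genes changed by 2 and 73% of 100 changed by 1 on the log2 scale, with 4 false calls. The simulated spread followed the trend with level, without a spread of its own for each gene, and no library stood apart. Changed genes were taken only above a floor of counts. The real data may therefore give lower recovery and more false calls.

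The comparison and its gene lists were chosen with earlier results of these data known. Genes with full values were taken by rule: the 15 largest changes each way among called, non-overlapping genes of at least 10 CPM outside the best known list, the 8 largest CPM differences each way among called genes outside that list, up to 4 of smallest p per list, up to 6 all-or-none genes each way, the 6 of smallest p per difference, and 7 sort genes. Predicted models and pseudogenes were left out of the largest changes and the largest CPM differences. Some genes that these rules take are not reported here. Other members named without values, and Mpo, Elane and Ctsg, were chosen after their values were seen. Shares and other measures over whole libraries were compared by exact permutation tests, two-sided, of 4 against 4 libraries.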

Additional observations from a re-analysis of the deposited data

Results flagged for a closer look

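Within 378 groups of 4 libraries, 28 (7.41%) held 1 library whose gap to its nearest neighbour exceeded 0.829 of the group's range, where chance flags about 1 in 20. Of these 13 were aged and 15 young groups. Young library 1 stood apart for Camk1d (18.5 CPM), Eef1a1 (2871 CPM), Kcnb2 (0.830 CPM), Loxl3 (31.0 CPM), Rarb (29.1 CPM), Serinc3 (2474 CPM) and Slc28a2 (52.6 CPM), and for the granulocyte share (0.0971%). Other young libraries did so for Adgrg1 (library 2, 4189.7 CPM), Akap13 (library 2, 2751 CPM), Mt2 (library 3, 0.209 CPM), Socs2 (library 3, 40.8 CPM), Abcg2 (library 4, 67.1 CPM), Hist1h1b (library 4, 64.6 CPM) and Ripk4 (library 4, 0.0761 CPM). Aged library 1 stood apart for Adgrl4 (733 CPM), Muc1 (52.0 CPM), Mvk (11.1 CPM), Srebf2 (263 CPM) and the mast cell, basophil and eosinophil share (0.000133%). Aged library 2 did so for Kdr (38.8 CPM), Nespas (0.305 CPM), Socs2 (9.65 CPM) and the B and plasma cell share (0.00334%). Aged library 3 did so for Arhgef28 (119.8 CPM) and Dhrs3 (68.2 CPM), and aged library 4 for the LT-HSC marker share (0.586%) and the erythroblast share (0.0977%).

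Of 175 genes described, the change with age in LT-HSC differed by the interaction test from that in ST-HSC for 85, from that in MPP for 109 and from both for 76. Of all tested genes 4.05% differed from ST-HSC and 9.93% from MPP. Most described genes were chosen for their change in LT-HSC and some for these differences, so the choice partly fixed such counts. Of the 14 whose differences are printed, 11 differed from both. Larger rises in LT-HSC, as log2 differences from ST-HSC and then from MPP, were found for Gpr183 (3.52 and 3.19), Alcam (2.09 and 2.24), Enpp5 (1.73 and 1.88), Pfkfb3 (1.47 and 1.57) and St3gal1 (0.79 and 1.29). Negative differences from ST-HSC and then from MPP were found for Sdf2l1 (-3.15 and -3.38), Mcm5 (-1.98 and -1.89), Slc28a2 (-1.87 and -2.06), Kcna3 (-1.85 and -1.38), Umps (-1.18 and -1.28) and Mlec (-0.79 and -0.77). All of these differences had adjusted p-values under 0.05 in edgeR's quasi-likelihood test. By the same test Sdf2l1 itself rose in aged MPP (log2 change 0.95, adjusted p = 0.011). Of the 49 unfolded protein response genes 34 rose in aged MPP, where 5.53% of all tested genes rose.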

How the results depend on the processing

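The count of genes changed in aged LT-HSC, 2678, lay between 2431 (the 8 libraries with a replicate block) and 2983 (limma-voom) under the 9 alternatives that kept all libraries, with 2467 without a filter and 2960 by DESeq2, and between 2035 and 2603 without any 1 library. With the replicate number as a block in all 24 libraries it was 2671. Same-numbered aged and young LT-HSC libraries, from different mice, had correlations of deviations of -0.0413, -0.0234, 0.0816 and 0.22. Within an age, same-numbered LT-HSC and ST-HSC libraries had 0.107, 0.0389, 0.198 and 0.134 (aged) and -0.0845, 0.194, 0.087 and 0.00464 (young). The highest with another number were 0.103, 0.0989, -0.0567 and 0.0169, and 0.147, 0.0554, -0.00808 and 0.21. LT-HSC and MPP had 0.0416, -0.0275, 0.0353 and -0.103 (aged) and 0.132, 0.0358, 0.187 and -0.0133 (young). The numbers were not taken to pair libraries, and whether a number marks a mouse is unknown. The difference in age effect between LT-HSC and ST-HSC was the least stable count: 575 genes, 944 by DESeq2 and 377 to 822 without 1 library. That against MPP was 1411 genes, 1798 by DESeq2 and 1007 to 1616 without 1 library, and young MPP against young ST-HSC was 2929 and 2263 to 2876. With a replicate block the counts of the differences were 582 and 1387. With 8 blocks by age and number, added after seeing the data, they were 590 and 1499. Of 176 genes, 157 kept their direction and their side of the threshold in all alternatives, and none reversed. Of 2988 values 50 lost their call and 2 gained one; the cause was not tested. Without any 1 library, 33 to 44 DNA repair genes, 8 to 17 cholesterol genes and 11 to 15 nucleotide synthesis genes fell and 13 to 17 signaling ligand genes rose. None of the 14 shares passed with any library left out, where 3 against 4 cannot give a p under 0.0571. Depth limits the all-or-none genes, which had 1 to 3 counts or none in the lower age.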
